A study of Homo sapiens with 4 samples.

Results

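Nuclear pore genes other than NUP210 were followed across H3K27ac and SMARCB1 ChIP-seq peaks of SK-Hep1 cells. The list holds 30 genes, and all 30 symbols were found among the 19821 protein-coding gene records of the autosomes and the X chromosome that were used. They were chosen by name, and for each gene the bases covered by peaks within its record or 10 kb on either side were summed in each library. This sum is called the covered length below.

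SK-Hep1 is an established human cell line that the labels call a hepatic adenocarcinoma line. H3K27ac, the acetylation of lysine 27 of histone H3 that marks active promoters and enhancers, was profiled in cells carrying a control shRNA and in cells carrying an shRNA that targets SMARCB1. SMARCB1 (also called SNF5) is part of the SWI/SNF complexes that slide and eject nucleosomes. Per the labels, the shRNA-infected cells expressed it stably and were selected with puromycin. Another library was precipitated with an antibody to SMARCB1, and an input library served as the control for peak calling, but the labels do not say which shRNA either of these carried. Whether the infected cells were 1 clone or a pool, and how many shRNA sequences were used, was not stated in the labels. Each group has 1 library, so no value below has a replicate error and none was tested. Background counts over all protein-coding genes are given in place of a test. SMARCB1 RNA or protein is not measured by these files, so the knockdown itself was not checked. Because the cells were profiled in bulk, fewer cells carrying the mark and less acetylation per cell cannot be told apart.

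The control library held 13235203 tags and 35307 peaks of median width 1707 bp, and the knockdown library held 10203310 tags and 34073 peaks of median width 1601 bp. The control library was thus 1.3 times deeper, and the fragment length in the file headers was 190 bp in the control and 158 in the knockdown. Summed over the genome, knockdown peaks covered 0.892 times the length of control peaks, and the part of depth and fragment length in any difference below was not tested. The same marker gene starts carried H3K27ac in both libraries, though peak widths differed. The lists held 8 hepatocyte, 6 mesenchymal, 6 endothelial and 4 leukocyte markers, but only some have a listed start. Over all genes, 62.3% of listed starts were marked in both libraries. Of the hepatocyte markers with a listed start, 2 of 4 carried H3K27ac (TF and SERPINA1, but not ALB or HNF4A), against 4 of 5 mesenchymal markers (VIM, CDH2, FN1 and CD44), 0 of 3 endothelial and 0 of 1 leukocyte markers.

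The nuclear pore complex is the channel through the nuclear envelope that carries proteins and RNA between nucleus and cytoplasm. Outer ring and inner ring scaffolds are anchored in the membrane by transmembrane nucleoporins, the central channel is filled by nucleoporins rich in phenylalanine-glycine repeats, and filaments extend to the cytoplasm and form a basket on the nuclear side. The genes are expressed broadly, since every nucleated cell needs the pore, and some nucleoporins, among them NUP98 and NUP153, also bind chromatin.

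Every one of the 30 genes carried H3K27ac in both libraries, where 74.5% of all protein-coding genes did. Their records were longer than usual, with a median of 59115 bp against 24482 bp over all genes, which widens the stretch in which a peak can be counted. The median covered length was 4093 bp in the control and 3263.5 in the knockdown, and over all genes it was 3758 and 3327 bp among those covered in both. Covered length was lower in the knockdown at 24 genes (80.0%) and higher at 6, while 76.6% of all genes covered in both libraries were lower. The median log2 ratio of knockdown over control was -0.11 for the nuclear pore genes and -0.17 for all genes. The list thus shifted in the direction of all genes. Its median ratio per gene was nearer to 0 than theirs. Its median covered length, however, fell by more than theirs, and its share of lower genes was slightly higher.

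**Figure D1:**
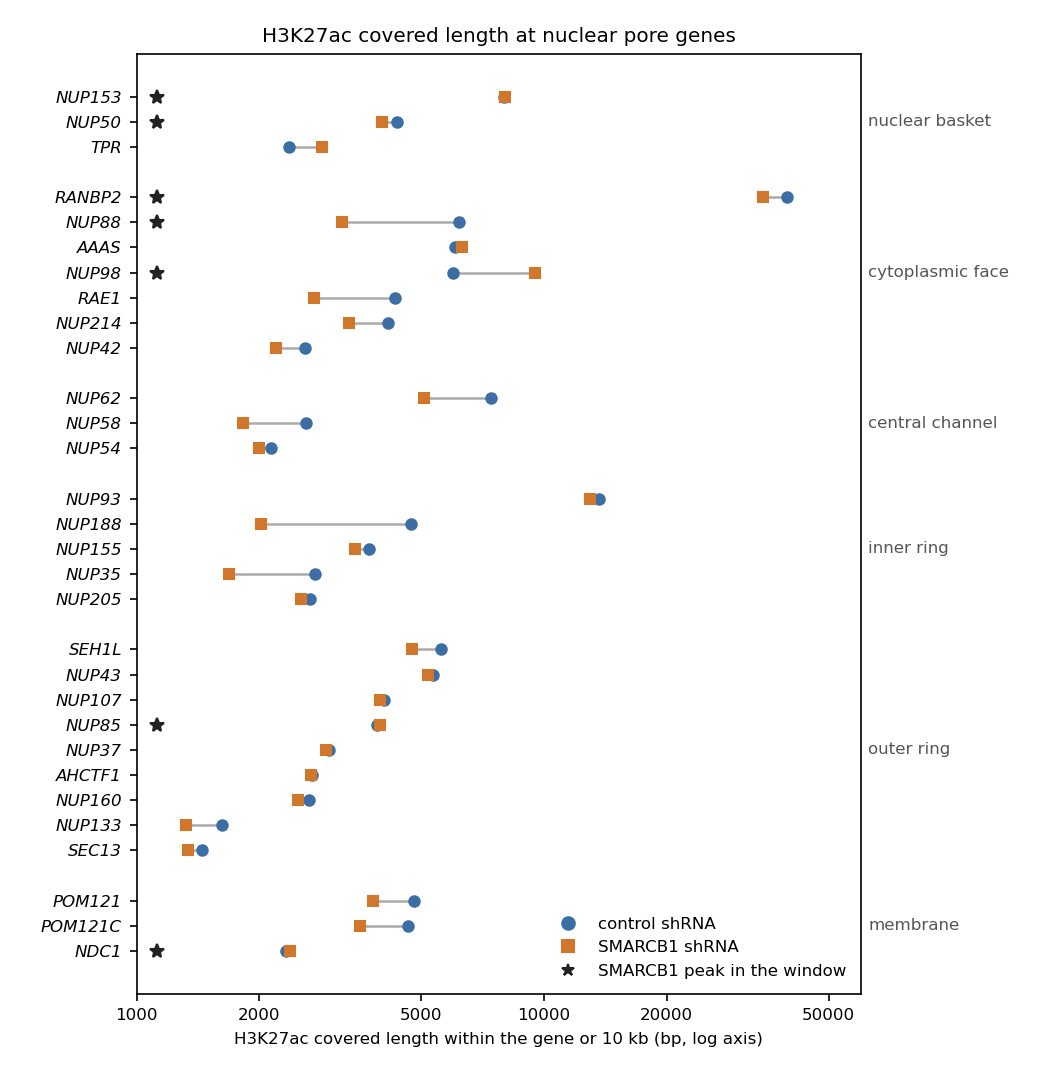
H3K27ac covered length within each gene or 10 kb of it, in bp on a log axis, for the control shRNA library and the SMARCB1 shRNA library, with genes grouped by their place in the pore. RANBP2 stands apart at 39441 and 34490 bp because of its long record, and NUP188, NUP88, NUP35, RAE1 and NUP98 show the widest gaps between the libraries.

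Past 1.5-fold, 4 genes were lower in the knockdown (NUP88, RAE1, NUP188 and NUP35) and 1 was higher (NUP98). This was 13.3% and 3.33% of the list, beside 12.0% and 3.75% of all genes with H3K27ac in either library. The number of genes past the threshold was thus near the background in both directions. The log2 ratios ran from -1.22 at NUP188 to 0.66 at NUP98.

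**Figure D2:**
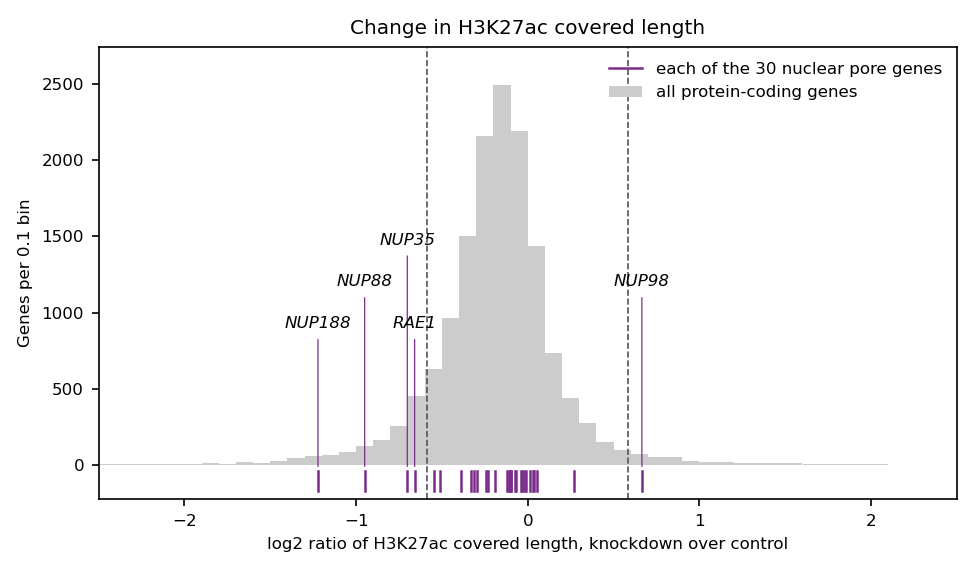
Distribution over genes of the log2 ratio of covered length, knockdown over control, for all protein-coding genes covered in both libraries, with each nuclear pore gene drawn as a mark and the 1.5-fold thresholds dashed. The 16 genes beyond a log2 ratio of 2.5 in size are not drawn, and 4 nuclear pore genes lie below the lower threshold and 1 above the upper.

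In the nuclear basket, covered length was lower in the knockdown at 1 of 3 genes. NUP153, which anchors the basket to the pore, was covered over 7976 bp in the control and 8034 in the knockdown. These near-equal totals were divided differently among peaks. The peak over its start was 6056 bp wide in the control. In the knockdown it was 4760 bp wide, a 683 bp peak lay beside its downstream end, and a separate upstream peak went from 1920 to 2591 bp. The 4760 and 683 bp peaks both overlapped the 6056 bp control peak. That control peak reached 5235 bp downstream of the start and the 683 bp peak reached 5291 bp. The start peak was thus split in the knockdown list, and its pieces measured 5443 bp together. Its upstream reach was 820 bp in the control and 653 in the knockdown. NUP50, a partner of NUP153 that binds importin alpha, had a single peak of 4352 bp that became 4003 bp. TPR, the coiled-coil protein of the basket filaments, also had a single peak, of 2362 bp in the control and 2849 in the knockdown, which ran over the start of the neighbouring gene ODR4 as well.

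At the cytoplasmic face, 5 of 7 genes were less covered in the knockdown, and 4 of the 7 are described here because they passed 1.5-fold or had the longest covered length. NUP88 joins NUP214 in the platform on which export of mRNA ends. It was covered over 6186 bp in the control and 3201 in the knockdown, 1.93 times as much in the control (log2 ratio -0.95). The knockdown kept 1 of its 2 control peaks. The peak over the start narrowed from 5334 to 3201 bp, mostly on the upstream side, where its reach from the start went from 3832 to 2046 bp. That side also covers the start of RPAIN, a gene read in the other direction, so the peak cannot be assigned to NUP88 alone. The other control peak, 852 bp wide and 5293 to 6144 bp downstream of the start, had no counterpart in the knockdown.

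RAE1 encodes an mRNA export factor that binds NUP98, and its covered length was 4299 bp in the control and 2722 in the knockdown (log2 ratio -0.66). The start peak measured 1887 and 1493 bp and a peak inside the gene measured 1410 and 1229 bp. The remainder of the difference was 2 control peaks of 501 bp, the smallest width in either list, with none over them in the knockdown. Of 4435 control peaks of that width genome-wide, 69.6% had no counterpart in the knockdown, beside 17.7% of control peaks of all widths. RAE1 was not past 1.5-fold with flanks of 0, 1 or 25 kb or with peaks of at least 1000 bp.

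NUP98, a nucleoporin that lines the pore and shuttles into the nucleus, was covered over 5982 bp in the control and 9482 in the knockdown (log2 ratio 0.66). The start peak did not widen, at 2926 and 2803 bp. The gain lay in a peak inside the gene, 2054 bp in the control and 3291 in the knockdown, and in a peak upstream within the PGAP2 record, 501 bp in the control and 2386 in the knockdown. The higher count at NUP98 therefore rests in part on another gene's record, and it did not pass 1.5-fold with flanks of 0, 1, 5 or 25 kb.

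RANBP2 forms the cytoplasmic filaments and acts as a SUMO ligase. Its 39441 bp in the control and 34490 in the knockdown were the longest covered lengths of the list, each from 16 peaks, but its RefSeq record runs over 1122820 bp. The window touches the records of 6 other coding genes (CCDC138, EDAR, RGPD5, SEPTIN10, SH3RF3 and SOWAHC). The peak over the start of RANBP2 itself was 2514 bp in the control and 1873 in the knockdown. NUP214 (4138 and 3326 bp), NUP42, which binds the export factor GLE1 (2587 and 2200 bp), and AAAS, the gene of aladin that is mutated in triple A syndrome (6066 and 6284 bp), stayed under 1.5-fold.

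The 3 central channel genes encode the repeat proteins that form one complex, and all 3 were less covered in the knockdown. NUP62 went from 7432 to 5082 bp, and 3 control peaks of 501, 714 and 501 bp had no counterpart. Its start peak, 4068 bp in the control and 3458 in the knockdown, also lies over the starts of ATF5 and IL4I1. NUP58 went from 2605 to 1827 bp, of which 501 bp was a single control peak. NUP54 was among the least covered genes of the list, at 2144 and 2002 bp. None of the 3 reached 1.5-fold, with a median log2 ratio of -0.51, but NUP62 did with flanks of 0, 1 or 5 kb and NUP58 with a flank of 0 kb.

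All 5 inner ring genes were less covered in the knockdown, and the 2 with the largest differences behaved differently. NUP188, a large scaffold protein, was covered over 4709 bp in the control and 2018 in the knockdown, the largest ratio of the list at 2.33-fold (log2 ratio -1.22). The start peak made up little of this, at 2310 and 2018 bp. The difference was a control peak of 2399 bp inside the gene, at chr9:128987287-128989685 on hg38 and 39588 bp downstream of the start, with no H3K27ac peak over it in the knockdown. Of 10866 control peaks at least that wide, 40 (0.368%) had no counterpart in the knockdown. The cut-off was the width of this peak, so the set holds wider peaks, up to 51000 bp, and peaks over starts. An overlap of 1 base counted as a counterpart. The share for peaks of similar width away from starts was not computed.

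NUP35, which binds membrane and links the inner ring to NDC1, had a single peak that went from 2748 to 1689 bp (log2 ratio -0.70). The shortening was on the downstream side, from a reach of 2069 to 1127 bp, while the upstream reach was 678 and 561 bp. Relative to the median ratio of all genes, NUP35 and RAE1 were not past 1.5-fold, and NUP88 and NUP188 were. NUP93, which holds the inner ring together, was the most covered gene of the list after RANBP2. It had 5 peaks in each library, each with its counterpart, and 13612 and 12970 bp covered. NUP205 (2666 and 2530 bp) and NUP155 (3711 and 3447 bp) differed less than NUP35.

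The outer ring, or Y complex, had the narrowest range of ratios of the 6 places in the pore. Covered length was lower in the knockdown at 8 of 9 genes, but the log2 ratios ran only from -0.30 to 0.03, with a median of -0.04. SEC13, which also serves in COPII vesicle coats, had the shortest covered length of the list in the control, at 1445 bp, and 1340 bp in the knockdown. NUP133, which binds curved membrane, had 1625 bp in the control and the shortest length in the knockdown, 1322 bp. SEH1L had the largest difference in bp, from 5598 to 4733, and AHCTF1, whose product ELYS brings the complex to chromatin as the nucleus reforms, the smallest, from 2697 to 2678. NUP107, NUP160, NUP43 and NUP37 were also lower, by 48 to 173 bp. NUP85 was the exception, at 3889 and 3963 bp.

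Of the 3 membrane nucleoporins, NDC1 was covered over 2330 bp in the control and 2386 in the knockdown. POM121 (4785 and 3808 bp) and POM121C (4646 and 3542 bp) were lower. The 2 are near-identical copies on chromosome 7, so reads could be split between them and their values are uncertain. In each, the difference came from 2 control peaks with no counterpart, 501 and 501 bp at POM121 and 628 and 501 bp at POM121C. The peak over the first listed start did not shorten in either, at 1954 and 1994 bp in POM121 and 1849 and 2017 bp in POM121C, while the peak over a later listed start of POM121 measured 1829 and 1814 bp.

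The reference promoter table lists a start for 28 of the 30 genes, all but NUP43 and AHCTF1. A gene start was counted as marked where a peak overlapped the stretch from 250 bases before it to 50 after. All 28 starts were marked in both libraries, beside 62.3% of the 15812 genes with a listed start. The start peak was narrower in the knockdown at 21 of the 28 (75.0%), where the share was 77.5% over all genes marked in both, and its median width was 2298.5 bp in the control and 2009.5 in the knockdown. At least 1.5-fold narrowing was found at NUP88 and NUP35 (7.14%, background 7.97%), and at least 1.5-fold widening at 0 genes (background 1.05%). The width of start peaks thus moved with that of other genes.

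**Figure D3:**
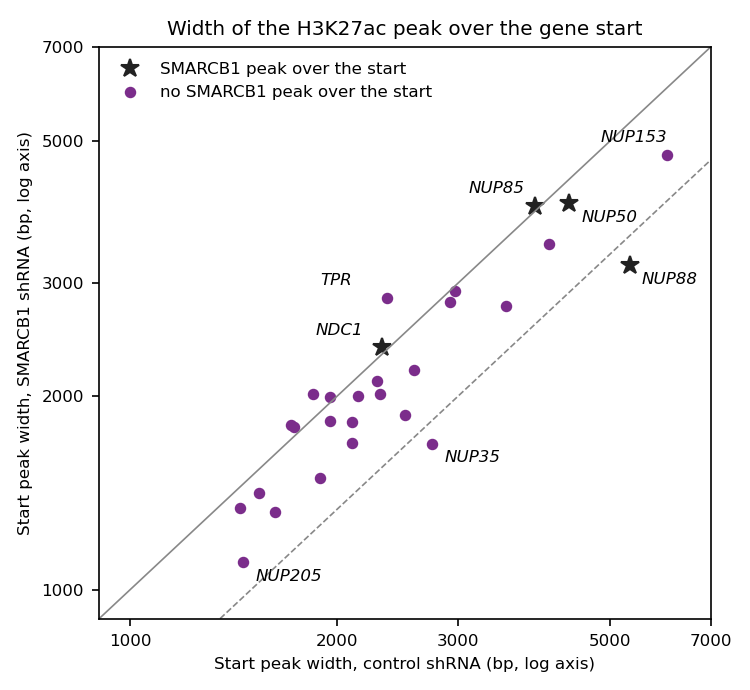
Width in bp of the H3K27ac peak over the gene start in the control library (x, log axis) and in the knockdown library (y, log axis) for the 28 nuclear pore genes with a listed start, with a solid line of equal width, a dashed line of 1.5-fold narrowing and stars for starts under a SMARCB1 peak. Most points lie under the solid line, with NUP88 (5334 and 3201 bp) and NUP35 (2748 and 1689 bp) past the dashed one and TPR (2362 and 2849 bp) farthest above the solid one.

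By place in the pore, the start peak was narrower at 2 of 3 basket genes, 5 of 7 at the cytoplasmic face, 3 of 3 of the channel, 5 of 5 of the inner ring, 6 of 7 of the outer ring with a listed start and 0 of 3 of the membrane. The membrane genes were wider in the knockdown, from 1954 to 1994 bp at POM121, from 1849 to 2017 bp at POM121C and from 2330 to 2386 bp at NDC1. The reach of the peak was shorter upstream at 21 of 28 genes (75.0%, all genes 72.1%) and shorter downstream at 17 of 28 (60.7%, all genes 71.1%). At 6 of the 28 (21.4%, all genes 23.5%) the control peak also covered another coding gene's start: TPR, NUP88, NUP98, NUP62, NUP188 with DOLK, and NUP37 with PARPBP.

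Peaks away from starts carried most of the changes in number. In the control, 29 peaks lay over the genes' own listed starts and each overlapped a knockdown peak, and 29 knockdown peaks lay there likewise. Over no coding start there were 39 control peaks, of which 16 had no counterpart, and 29 knockdown peaks, of which 3 had none. Without RANBP2 there were 27 control peaks, 13 without a counterpart, and 17 knockdown peaks, 2 without. Genome-wide, 17.7% of control and 12.2% of knockdown peaks had no counterpart, over all widths and positions. Of control peaks of 501 bp, 69.6% had none. A genome-wide share for peaks over no coding start was not computed. The median width of the peaks without a counterpart at the nuclear pore genes was 501 bp in both libraries. The widest of them was the 2399 bp peak at NUP188, followed by a 983 bp peak in the RANBP2 record and the 852 bp peak at NUP88.

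**Figure D4:**
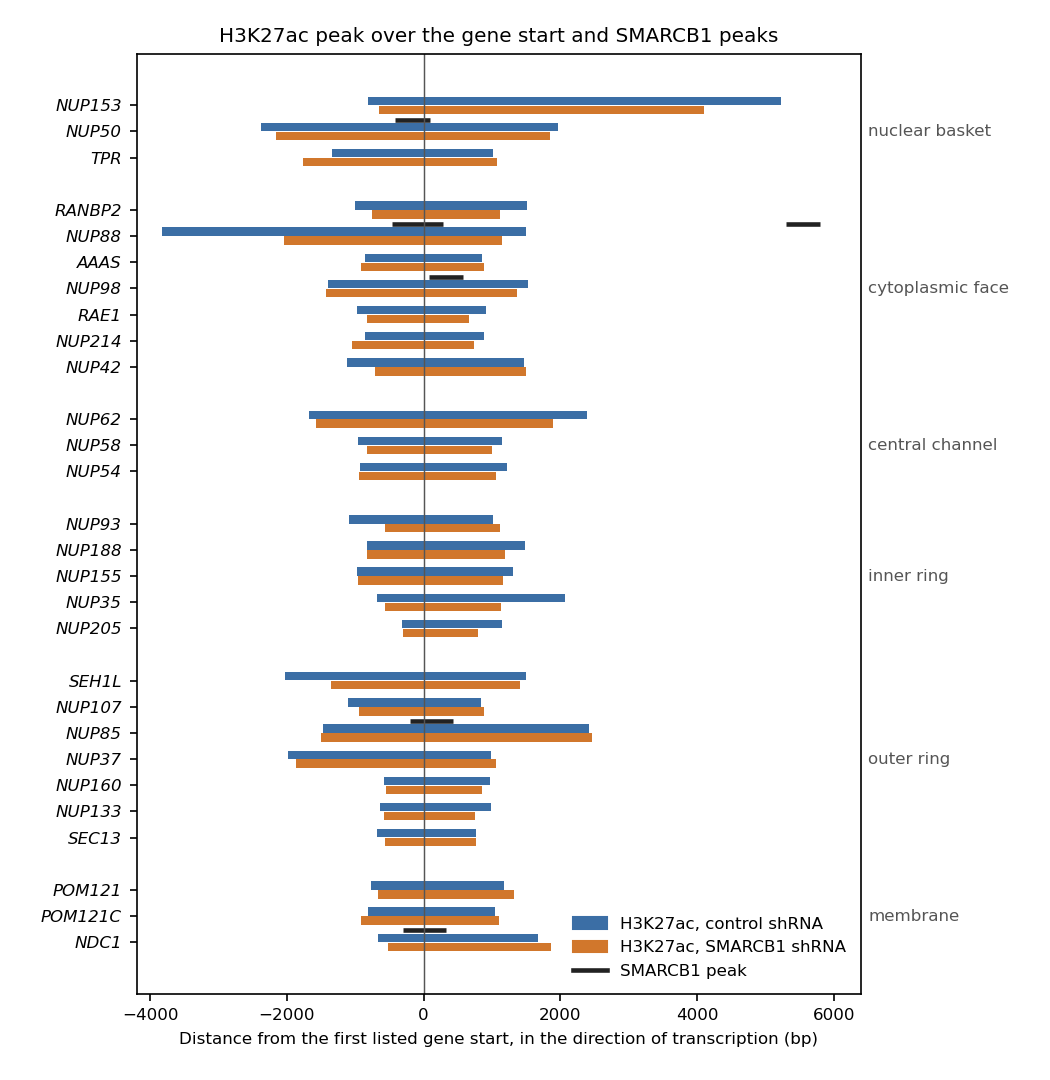
Extent of the H3K27ac peak over each gene start in the control and knockdown libraries, and of the SMARCB1 peaks near it, against distance from the first listed start in bp in the direction of transcription. The shorter upstream reach at NUP88 (3832 to 2046 bp) and downstream reach at NUP35 (2069 to 1127 bp) in the knockdown are visible, and SMARCB1 peaks farther away are outside the range drawn.

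SMARCB1 peaks lay within the gene or 10 kb at 7 genes (23.3%), the same share as over all protein-coding genes (23.3%): NUP153, NUP50, NUP88, RANBP2, NUP98, NUP85 and NDC1. Over a listed start there was one at 4 of 28 (14.3%), namely NUP50, NUP88, NUP85 and NDC1. The share was 9.39% of all listed starts and 14.8% of starts marked by H3K27ac in both libraries. SMARCB1 peaks were therefore about as frequent at the nuclear pore genes as at other acetylated starts. Each peak has a value from the authors, of unit not given, that ran from 7.39 to 1217.4 with a median of 11.6 over the 4453 peaks, and it is used here only to rank them.

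The promoters at which a SMARCB1 peak lay over or next to the start are shown first, so that the values can be read against their sequence. They run up to the base before the first start, over 250 bases or as far as the record of a neighbouring gene allows (NUP50-DT at NUP50 and PGAP2 at NUP98). Sequences are from RefSeq (GRCh38.p14, the same main chromosomes as hg38), 5′ to 3′ on the gene's strand. Capitals mark matches on either strand to the letters of the GC box, NF-Y, ETS and NRF1 motifs, which are spelled out with 3 others beside their shares further on.
NUP50 promoter, chr22:45163782-45163924, plus strand: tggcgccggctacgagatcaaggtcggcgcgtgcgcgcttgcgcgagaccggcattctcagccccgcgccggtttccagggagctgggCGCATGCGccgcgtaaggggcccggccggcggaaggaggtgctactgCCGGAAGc
NUP88 promoter, chr17:5419663-5419912, minus strand: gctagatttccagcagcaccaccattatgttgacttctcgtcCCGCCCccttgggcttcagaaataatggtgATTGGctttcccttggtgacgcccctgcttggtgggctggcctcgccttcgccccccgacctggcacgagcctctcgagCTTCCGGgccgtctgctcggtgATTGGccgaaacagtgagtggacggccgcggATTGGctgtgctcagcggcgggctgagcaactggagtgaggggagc
NUP98 promoter, chr11:3797555-3797719, minus strand: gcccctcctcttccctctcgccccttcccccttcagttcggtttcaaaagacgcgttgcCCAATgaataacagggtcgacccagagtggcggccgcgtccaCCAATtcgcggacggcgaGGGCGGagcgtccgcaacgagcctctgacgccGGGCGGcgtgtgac
NUP85 promoter, chr17:75205429-75205678, plus strand: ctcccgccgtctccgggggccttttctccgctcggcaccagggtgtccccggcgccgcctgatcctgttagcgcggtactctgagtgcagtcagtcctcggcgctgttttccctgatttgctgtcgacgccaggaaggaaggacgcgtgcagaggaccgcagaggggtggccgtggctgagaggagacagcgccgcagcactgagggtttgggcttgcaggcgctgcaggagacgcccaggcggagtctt
NDC1 promoter, chr1:53838297-53838546, minus strand: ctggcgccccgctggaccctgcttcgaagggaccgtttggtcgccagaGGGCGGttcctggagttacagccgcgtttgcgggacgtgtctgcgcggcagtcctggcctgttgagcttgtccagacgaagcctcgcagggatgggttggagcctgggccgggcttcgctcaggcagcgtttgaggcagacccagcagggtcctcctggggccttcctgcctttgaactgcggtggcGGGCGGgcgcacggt
The NUP50 stretch holds an ETS match 8 to 2 bases before the start and a pair of overlapping NRF1 matches from base -55 to -48. NUP88 holds 3 NF-Y matches, an ETS match and a GC box, NUP98 holds 2 NF-Y matches and 2 GC boxes, and NDC1 holds 2 GC boxes. The NUP85 stretch holds none of these letters. No base of the NUP98 stretch lies under the SMARCB1 peak there, which begins downstream of the start.

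NUP88 had 3 SMARCB1 peaks in its window, more than the other genes. The peak over the start, at chr17:5419371-5420125, covers the whole NUP88 stretch shown and had a value of 20.6, rank 527 of 4453 from the highest. A second, at chr17:5413867-5414366 with a value of 9.51, was placed in an exon by the authors' annotation. It lies within the 852 bp control H3K27ac peak that had no counterpart in the knockdown. Genome-wide, 121 of the 4453 SMARCB1 peaks (2.72%) lay over control H3K27ac with no knockdown H3K27ac. The last, at chr17:5381298-5381797 with a value of 10.6, is in the neighbouring RABEP1 record and had no H3K27ac under it in either library.

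The other SMARCB1-marked starts kept most of their H3K27ac width. At NUP85, an outer ring protein, the SMARCB1 peak at chr17:75205474-75206114 ran from position -205 to 435 relative to the start (value 16.4, rank 936). The H3K27ac peak around it was 3889 bp in the control and 3963 in the knockdown. At NDC1, the SMARCB1 peak at chr1:53837964-53838591 (value 11.6) ran from position -295 to 332, with H3K27ac widths of 2330 and 2386 bp. At NUP50, the SMARCB1 peak at chr22:45163513-45164012 (value 11.6, rank 2125) ran from position -412 to 87, and H3K27ac there was 4352 bp in the control and 4003 in the knockdown. So of the 4 starts under SMARCB1, NUP88 was the one past 1.5-fold, and NUP35 passed it with no SMARCB1 peak in its window.

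At NUP98 the SMARCB1 peak, chr11:3796977-3797476 with a value of 13.7, began 78 bp downstream of the first start. This was outside the stretch counted as the NUP98 start. The peak overlapped the stretch counted as the start of PGAP2 but did not touch the PGAP2 record. The NUP98 start lay between the peak and that record. At NUP153 the SMARCB1 peak lay at chr6:17616855-17617354, 89571 bp downstream of the start, in an intron by the authors' annotation. It had no H3K27ac under it in either library. Its value of 8.45 was among the lowest of the list, at rank 4285. The 2 peaks in the RANBP2 window had values of 13.7 and 8.98. They lay 894485 and 928170 bp from its start, and both were under H3K27ac in both libraries. The first overlapped the stretches counted as the starts of SEPTIN10 and SOWAHC, and it touched the SOWAHC record but not that of SEPTIN10.

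Motifs were searched in the 300 bases around each of the 28 starts, 250 before and 50 after. The letters of the ETS motif, CCGGAAG, bound by ETS factors such as GABPA, were found at 12 of the 28 genes (42.9%). The share was 14.1% of all promoters of that length and 20.5% of those with H3K27ac over the start in both libraries. The GC box letters GGGCGG, bound by SP1, went the other way, at 11 of 28 (39.3%) against 58.3% of all and 72.6% of acetylated promoters. The median GC content was close, at 63.2% for the nuclear pore promoters, 62.7% for all and 65.7% for acetylated ones. The copies POM121 and POM121C carry the same ETS site and are counted as separate genes. A match in letters is not a binding site, and these shares were not tested.

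**Figure D5:**
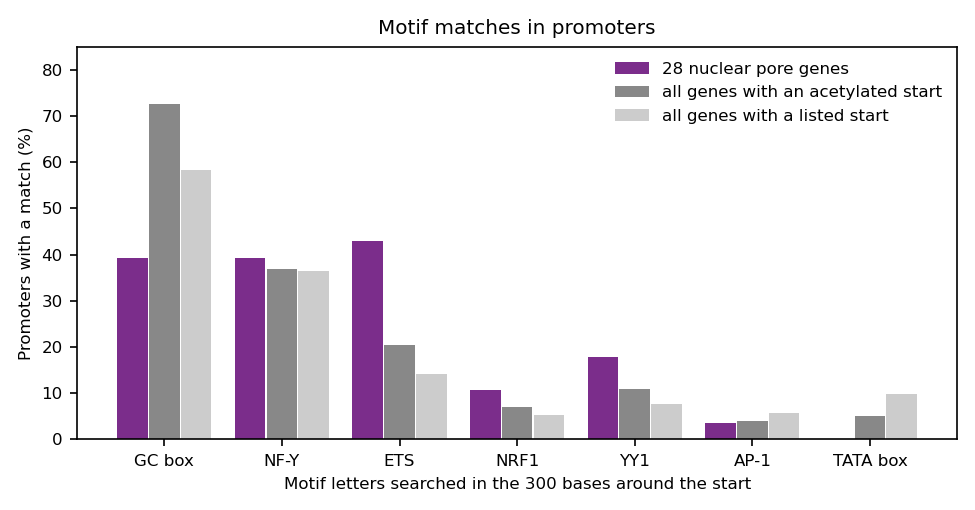
Share in % of promoters with at least 1 match to each motif on either strand, for the 28 nuclear pore genes, for promoters with H3K27ac over the start in both libraries and for all promoters of the table. The ETS letters stand at 42.9%, 20.5% and 14.1% in that order, and the GC box letters at 39.3%, 72.6% and 58.3%.

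The other motifs are given with both background shares. The NF-Y letters CCAAT were found at 11 of 28 (39.3%, all promoters 36.4%, acetylated 36.9%), the YY1 letters ATGGCGG at 5 (17.9%, all 7.58%, acetylated 10.9%), the NRF1 letters GCATGCG at 3 (10.7%, all 5.15%, acetylated 6.99%) and the AP-1 letters TGANTCA at 1 (3.57%, all 5.70%, acetylated 3.98%). The TATA box letters TATAAA were found at 0 (all 9.75%, acetylated 5.01%). Matches to different motifs may share bases, and both strands were read.

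The 12 genes with ETS letters came from each place in the pore: NUP50 in the basket, NUP214 and NUP88 at the cytoplasmic face, NUP54 and NUP58 of the channel, NUP35 of the inner ring, NUP107, NUP37, SEH1L and SEC13 of the outer ring, and POM121 and POM121C of the membrane. They held 14 matches, of which 13 lay before the start and 7 were on the gene's strand. Sites at NUP88 and NUP35, which were past 1.5-fold in H3K27ac, are shown beside sites at genes that were not. Each is 5′ to 3′ on the strand named, with the ETS letters in capitals and 8 bases on either side.
NUP88, chr17:5419747-5419769, plus strand: cagacggcCCGGAAGctcgagag
NUP58, chr13:25301551-25301573, minus strand: gtagcccgCCGGAAGtgtaaccg
NUP35, chr2:183124338-183124360, plus strand: gcgcaggtCCGGAAGttacgcaa
SEC13, chr3:10321111-10321133, minus strand: gcccggcgCCGGAAGtgagctgt
POM121, chr7:72879266-72879288, minus strand: ggagtgcaCCGGAAGtccgcctc
POM121C, chr7:75486354-75486376, plus strand: ggagtgcaCCGGAAGtccgcctc
The sites of POM121 and POM121C are the same over all these bases, as the genes are copies of each other.  Genes with these letters were thus found both past and under 1.5-fold, and so were genes without them, such as RAE1 and NUP188.

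Transport receptors and the Ran cycle, which move cargo through the pore, were measured in the same way over 37 genes. Of these, 36 carried H3K27ac in both libraries and XPO4 was listed at 0 bp in both. At least 1.5-fold lower covered length was found at 3 of 36 (8.33%) and higher at 0. The shares were 13.3% and 3.33% of the nuclear pore genes and 12.0% and 3.75% of all genes with H3K27ac in either library. The 3 were the import receptors IPO9 (6056 bp in the control and 2529 in the knockdown) and IPO7 (4307 and 2544 bp) and the export receptor XPO6 (8981 and 5549 bp). The start peak of IPO7 was 2547 and 2544 bp, and control peaks of 630, 629 and 501 bp there had no counterpart. At IPO9, control peaks of 501, 501, 803 and 676 bp had none. The start peak of XPO6 was 3870 and 2122 bp. A SMARCB1 peak lay in the window of 16 of 37 (43.2%), beside 23.3% of the nuclear pore genes and 23.3% of all genes. At KPNA6, IPO11, XPO5, NXF1, NXT1, GLE1 and DDX19A it lay only in the flank, outside the gene's own record. The nuclear pore genes with a SMARCB1 peak were the same 7 with a flank of 0 kb. RANBP2 was among them only through its long record, with SMARCB1 peaks 894485 and 928170 bp from its start. Over the start there was one at 6 of 30 transport genes (20.0%), beside 14.3% of the nuclear pore genes. The share was 9.39% of all listed starts and 14.8% of acetylated ones. The highest values were 54.9 at RCC1, the exchange factor of Ran, 25.9 at the importin TNPO1, 23.8 at the tRNA exporter XPOT and 19.5 at IPO13, all but IPO13 above the 20.6 of the NUP88 start. For reference, NUP210, a membrane nucleoporin with a large part in the lumen of the envelope, was covered over 1863 bp in the control and 1478 in the knockdown, a ratio of 0.793.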

How the data were processed

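ChIP-seq peaks of SK-Hep1 cells were used as deposited: H3K27ac with a control shRNA, H3K27ac with an shRNA against SMARCB1, and SMARCB1, 1 library each. The input was used by the authors for peak calling, and its own signal was not analysed here. The submitters' processing notes name Bowtie2, HOMER and the hg38 build without versions. Per the file headers, the 2 H3K27ac lists came from HOMER's histone style with peaks sized at 500 bp, kept 1000 bp apart and enriched at least 4-fold over both input and surroundings, and 53.78% of control and 55.07% of knockdown tags lay in peaks. Both were called against the same input, whose name in the headers begins with Con. For the SMARCB1 list, caller settings and depth were not stated. The values in the deposited lists are peak positions and, for SMARCB1, a score whose unit is not stated. A peak list holds only what passed the caller, and a shallower library can give narrower and fewer peaks.

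Covered length was computed from the positions in Python 3.11.15 with NumPy 2.4.6, with overlaps of at least 1 base, gene records from RefSeq (GRCh38.p14) and 235 protein-coding records left out (off the autosomes and X, on alternate or unplaced sequences, or repeating a symbol). Peaks on Y (3 in each H3K27ac list) were not used. The calculation was tested on simulated peaks and checked against bedtools 2.31.1. Singly described genes are those with a SMARCB1 peak, those past 1.5-fold, and those with the 3 longest and 3 shortest covered lengths in the control, and of the transport genes up to 4 past 1.5-fold and 4 of the highest SMARCB1 value. Others are named to account for the list. The members and all lists, the motifs included, were chosen with earlier results of these data known. Flank size, minimum peak width, fold, clipping and scaling were varied.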

Additional observations from a re-analysis of the deposited data

How the results depend on the processing

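Leaving replicates out was not possible, and no paired analysis was possible because each group has 1 library. The median log2 ratio over the list, -0.11, was -0.10 with flanks of 0 or 1 kb and with peaks of at least 1000 bp, -0.15 with 5 kb, and -0.11 with 25 kb, with whole peak lengths or without RANBP2. It was -0.13 without peaks that lie only over another coding gene's start; this and leaving out RANBP2 were chosen after seeing the data. Set relative to the median of all genes it turned to 0.062. The number of genes at least 1.5-fold lower, 4, was 1 at 2-fold and 2 relative to the median of all genes. The number higher, 1, was 0 with flanks of 0, 1, 5 or 25 kb and at 2-fold. NUP88 and NUP188 were lower at 1.5-fold under every setting run, while RAE1 was not with flanks of 0, 1 or 25 kb or with peaks of at least 1000 bp. The number with a SMARCB1 peak, 7, was 4 with the higher-valued 50% of peaks. With 1 library a group, and 10203310 tags against 13235203, whether differences near the smallest peak width of 501 bp exceed sampling was not tested.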
